A study of Mus musculus with 9 samples.

Results

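Laminin chains and integrin subunits were examined in bulk mRNA sequencing libraries of cultured mouse adipose-derived stem cells (ASCs). The members were the 36 genes of the count table whose symbol was on a list of laminin chains and integrin subunits, of 54532 genes in all. They comprised 10 laminin chains and 26 integrin subunits, of which 18 encode alpha and 8 encode beta subunits. Their positions in the count table match GENCODE M21 on GRCm38 for 36 of 36 members. The cells came from subcutaneous (Sub-ASCs), abdominal (Ab-ASCs) and perivascular (PVASCs) fat of C57BL/6 mice, with 3 libraries in each of the 3 groups. No allele or treatment set the groups apart, and all were grown in the same stem cell medium with serum, leukemia inhibitory factor and FGF and harvested between the third and the sixth passage. The labels do not tie the libraries to separate mice or cultures, so p-values measure the spread between these libraries, which may be technical.

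Laminins are basement membrane proteins, each assembled from an alpha, a beta and a gamma chain, and the alpha chain carries the main sites that cells bind. Integrins are cell surface receptors built from an alpha and a beta subunit, and the pair decides the ligand: some pairs bind laminins, others collagens, proteins with an RGD motif such as fibronectin, or counter-receptors on other cells. In blood vessels the laminins of the endothelial and smooth muscle basement membranes anchor the cells of the vessel wall, and in fat a basement membrane surrounds each adipocyte.

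The libraries held between 20524173 and 29881036 reads, so that 3 reads, taken as the floor, were worth a CPM (reads scaled to library size) of 0.0917 to 0.161. Floors cover counting error only. Levels are given as FPKM, which corrects reads for gene length and library size, calculated from the counts with TMM-normalised library sizes. The first Ab-ASC library stood apart from the others of its group, with a chi-square per degree of freedom of 29.3 and 18.5 against them, whereas the other pairs within groups lay between 2.92 and 8.09. At least 7 of the 8 stromal markers (such as Pdgfra, Thy1 and Cd34) reached 1 FPKM in each group, and Dpp4 was under it in PVASCs. Markers of other cells differed between the groups: the 6 endothelial markers summed to 32.6 to 35.4 FPKM in Sub-ASCs, 11.2 to 11.9 in Ab-ASCs and 137 to 138 in PVASCs, and the 8 mesothelial markers to 1.17 to 1.62, 42.9 to 48.2 and 21.1 to 22.5. In bulk libraries, fewer cells of a type and less RNA per cell cannot be told apart.

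RefSeq promoters on GRCm38.p6 were matched by symbol for 23 of the 36 members, which had 26 promoters. Of the members that were higher in PVASCs than in either other group, 3 are shown as examples by the 250 bases before the start, a laminin chain and 2 integrin subunits whose windows hold no annotated exon of their own gene. Capitals mark a GC box, GGGCGG on either strand.
Lama5 (chr2:180225860-180226109, minus strand): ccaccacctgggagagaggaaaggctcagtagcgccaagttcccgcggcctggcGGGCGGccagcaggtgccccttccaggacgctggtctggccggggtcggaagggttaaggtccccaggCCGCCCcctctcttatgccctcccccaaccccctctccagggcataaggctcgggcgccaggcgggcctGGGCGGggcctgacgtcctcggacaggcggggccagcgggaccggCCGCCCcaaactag
Itga4 (chr2:79255176-79255425, plus strand): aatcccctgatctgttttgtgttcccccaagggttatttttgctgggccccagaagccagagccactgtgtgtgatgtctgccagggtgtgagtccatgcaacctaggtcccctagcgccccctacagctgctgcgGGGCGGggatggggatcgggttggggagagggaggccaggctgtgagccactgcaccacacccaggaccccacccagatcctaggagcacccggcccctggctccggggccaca
Itga2 (chr13:114932101-114932350, minus strand): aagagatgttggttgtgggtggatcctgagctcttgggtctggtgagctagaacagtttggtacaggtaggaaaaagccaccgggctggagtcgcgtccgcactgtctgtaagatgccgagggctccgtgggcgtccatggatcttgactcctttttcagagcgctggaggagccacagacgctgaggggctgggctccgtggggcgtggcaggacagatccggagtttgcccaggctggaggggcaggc
The Lama5 window held 72.4% G and C and 4 GC boxes. Itga4 had 64.0% and 1 GC box, and Itga2 had 60.8% and none in these letters. A GC box was in 9 of the 26 member promoters and in 32.7% of all 32851 promoters of the same length. The letters AGGTGTGA, a T-box half-site, were in 0 of 26 member promoters and in 1.12% of all. CCGGAAG, the core bound by ETS factors, was in 1 of 26 (Itga3) and in 6.91% of all, and TATAAA in 0 of 26 and in 12.4%. The searches covered both strands, and a match or its lack in these windows is a description of the letters.

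Of the 36 members, 33 passed the low-count filter and were tested among 16526 genes with edgeR's quasi-likelihood test and Benjamini-Hochberg adjustment at a threshold of 0.05. PVASCs had higher levels than Sub-ASCs for 16 of 33 members (48.5%) and lower levels for 13 (39.4%), against 34.7% and 35.7% of all genes tested. At a fold of at least 2 (1 on the log2 scale), 15 members (45.5%) were higher and 7 (21.2%) were lower, against 15.7% and 16.6% of all genes. In PVASCs against Ab-ASCs, 12 members (36.4%) were higher and 16 (48.5%) were lower, beside 24.7% and 32.1% of all genes, and at a fold of at least 2 the counts were 8 (24.2%) and 7 (21.2%), beside 10.1% and 5.31%. In Ab-ASCs against Sub-ASCs, 16 members (48.5%) were higher and 12 (36.4%) lower, against 37.0% and 38.3%, and at a fold of at least 2 there were 10 (30.3%) and 5 (15.2%), against 16.4% and 21.3%. The shares lower in PVASCs than in Sub-ASCs, and lower in Ab-ASCs than in Sub-ASCs, thus lay near those of all genes.

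The median log2 fold change of the 33 members was 0.19 in PVASCs against Sub-ASCs, -0.22 in PVASCs against Ab-ASCs and 0.32 in Ab-ASCs against Sub-ASCs, where the medians of all genes were -0.01, -0.06 and -0.03. Of the 10 laminin chains, 3 were higher and 6 lower in PVASCs than in Sub-ASCs, and 1 was higher and 8 lower than in Ab-ASCs. Among the 23 integrin subunits tested, 13 were higher and 7 lower than in Sub-ASCs, and 11 were higher and 8 lower than in Ab-ASCs. Of all genes, 34.7% were higher and 35.7% lower against Sub-ASCs, and 24.7% and 32.1% against Ab-ASCs, so the laminin chains higher than in Sub-ASCs and the integrin subunits lower than in either group were near the share of all genes. Without the first Ab-ASC library, 25 members were called in PVASCs against Ab-ASCs (11 higher, 14 lower), beside 54.3% of all genes, and 29 in Ab-ASCs against Sub-ASCs (17 higher, 12 lower), beside 74.4%. The comparisons share groups and are not independent of each other.

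**Figure D1:**
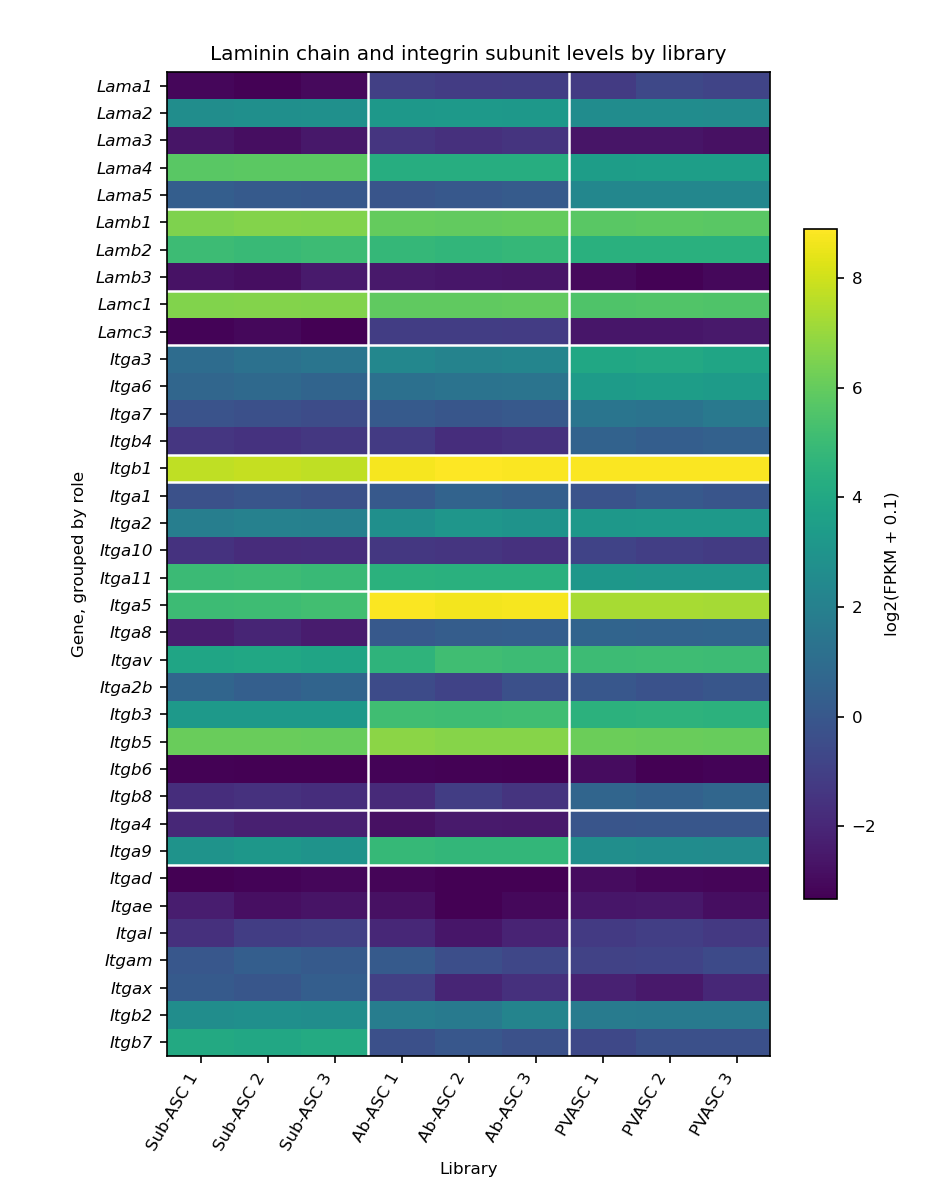
Level of each of the 36 members as log2(FPKM + 0.1) in the 9 libraries, with genes in rows grouped by role and libraries in columns. White lines separate the roles and the 3 groups. Lama4 is brightest in the Sub-ASC columns, Itga5 in the Ab-ASC columns, and Itga3 and Itga6 in the PVASC columns, and the 3 libraries of a group look alike.

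PVASCs contained less of the most abundant laminin alpha chain, Lama4, than both other groups and more Lama5, while Lama2 was highest in Ab-ASCs. Lama4 is the alpha chain of laminins around endothelial cells and adipocytes, and it lies on chromosome 10 (38965515 to 39110188, plus strand). For Lama4, the Sub-ASC libraries gave 54.5, 56.5 and 55.8 FPKM, the Ab-ASC libraries 19.6, 19.5 and 19.5 and the PVASC libraries 11.1, 11.4 and 11.3. The 3 groups did not overlap, and the libraries of a group differed by far less than the groups. PVASCs had 4.94-fold lower Lama4 than Sub-ASCs (log2 fold change -2.30 ± 0.05 SE, adjusted p = 3.03e-13). Compared with Ab-ASCs, Lama4 was 1.73-fold lower in PVASCs (log2 fold change -0.79 ± 0.04 SE, adjusted p = 2.17e-08). Lama4 in Ab-ASCs was 2.85-fold lower than in Sub-ASCs (log2 fold change -1.51 ± 0.04 SE, adjusted p = 1.08e-11).

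Lama5, on chromosome 2 (180176373 to 180225859, minus strand), encodes the alpha chain of broadly expressed laminins that integrins with Itga3 or Itga6 bind strongly. Lama5 levels were 1.15, 0.991 and 0.924 FPKM in Sub-ASCs, 0.830, 0.941 and 1.03 in Ab-ASCs and 4.94, 4.96 and 4.997 in PVASCs. All PVASC libraries were above all others, and the Sub-ASC and Ab-ASC libraries overlapped. PVASCs had 4.87-fold higher Lama5 than Sub-ASCs (log2 fold change 2.29 ± 0.09 SE, adjusted p = 1.86e-10). Compared with Ab-ASCs, Lama5 was 5.30-fold higher in PVASCs (log2 fold change 2.41 ± 0.09 SE, adjusted p = 8.63e-10). Between Ab-ASCs and Sub-ASCs no difference in Lama5 passed the test (log2 fold change -0.12 ± 0.10 SE, adjusted p = 0.282).

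Lama2 encodes the alpha chain of the laminins of muscle and peripheral nerve, and its loss causes a muscular dystrophy. Lama2 measured 6.34, 6.63 and 6.81 FPKM in the Sub-ASC libraries, 8.91, 9.28 and 9.12 in the Ab-ASC libraries and 6.01, 5.99 and 5.76 in the PVASC libraries. The Ab-ASC libraries were all above the others, and the PVASC libraries lay just below the Sub-ASC libraries. Lama2 in Ab-ASCs was 1.38-fold higher than in Sub-ASCs (log2 fold change 0.47 ± 0.05 SE, adjusted p = 3.51e-06). PVASCs had 1.54-fold lower Lama2 than Ab-ASCs (log2 fold change -0.62 ± 0.05 SE, adjusted p = 7.92e-07). The smaller difference between PVASCs and Sub-ASCs also passed the test (log2 fold change -0.16 ± 0.05 SE, adjusted p = 0.0156) but not in 4 of its 15 alternatives: without the third Sub-ASC library (adjusted p = 0.0653), the second PVASC library (0.0542) or the third PVASC library (0.0983), and without the low-count filter (0.0914).

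The remaining alpha chains, Lama1 (an embryonic chain) and Lama3 (the epithelial chain of skin anchorage), stayed below 1 FPKM. Lama1 ranged from 0.00406 to 0.0236 FPKM in Sub-ASCs, 0.344 to 0.394 in Ab-ASCs and 0.328 to 0.522 in PVASCs, with at most 6 reads in a Sub-ASC library. Lama1 was thus called higher in PVASCs and in Ab-ASCs than in Sub-ASCs, and between PVASCs and Ab-ASCs the difference did not pass the test (log2 fold change 0.24, edgeR adjusted p = 0.32). Lama3 ranged from 0.228 to 0.265 FPKM in Ab-ASCs and from 0.0366 to 0.0710 in the other libraries, and was called higher in Ab-ASCs than in either other group.

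Per length, Lama4 was the leading alpha chain in all 9 libraries, but its share of the laminin alpha FPKM differed. Lama4 held 87.9% ± 0.177 (SD, n = 3) in Sub-ASCs, 64.7% ± 0.590 in Ab-ASCs and 49.8% ± 0.379 in PVASCs. Lama2 held 10.4% ± 0.255, 30.2% ± 0.499 and 26.1% ± 0.657, and Lama5 held 1.61% ± 0.206, 3.09% ± 0.322 and 21.9% ± 0.242. The summed laminin alpha level itself was 62.1 to 64.2 FPKM in Sub-ASCs, 30.03 to 30.26 in Ab-ASCs and 22.4 to 22.9 in PVASCs. The groups did not overlap in these shares and sums, for which 3 against 3 libraries cannot go below p = 0.1 in an exact permutation test, so they are given as descriptions.

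**Figure D2:**
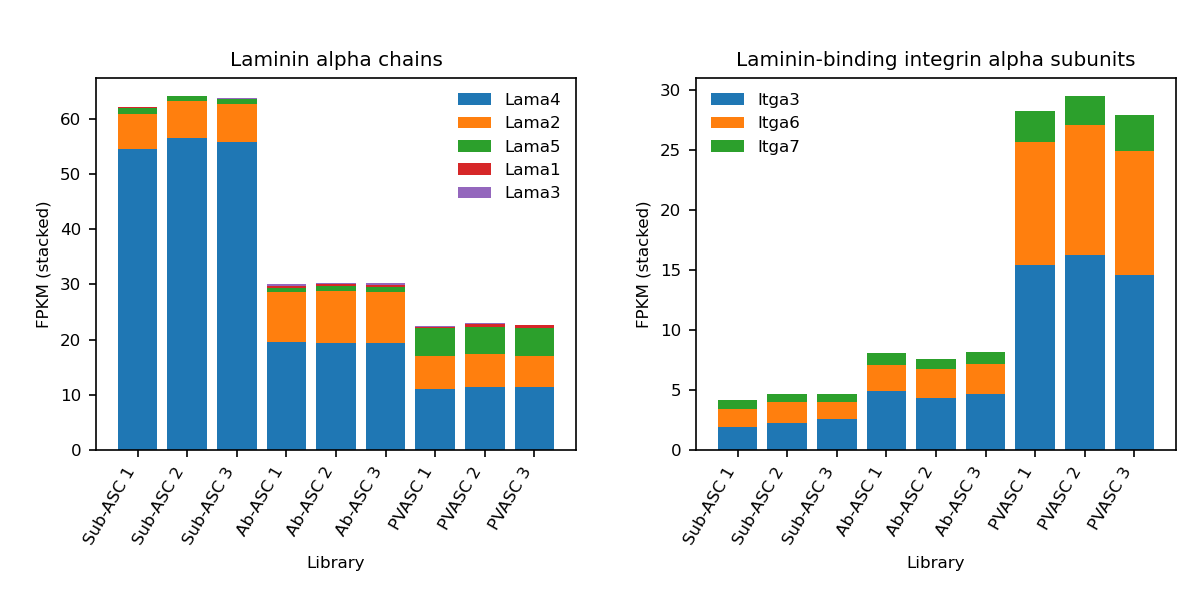
Stacked FPKM of the laminin alpha chains (left) and of the laminin-binding integrin alpha subunits (right) in each of the 9 libraries, with 1 bar for each library and 1 colour for each gene. The laminin bars fall from 62.1 to 64.2 FPKM in Sub-ASCs to 22.4 to 22.9 in PVASCs, while the receptor bars rise from 4.20 to 4.65 FPKM to 27.9 to 29.5.

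The beta and gamma chains that most laminins share, Lamb1, Lamb2 and Lamc1, were highest in Sub-ASCs and lowest in PVASCs. For Lamb1, the Sub-ASC libraries gave 92.6, 97.8 and 96.2 FPKM, the Ab-ASC libraries 64.6, 62.6 and 63.3 and the PVASC libraries 53.8, 55.8 and 53.7. Lamb1 pairs with Lamc1 in the widely expressed laminins, and its groups did not overlap. Compared with Sub-ASCs, Lamb1 was 1.75-fold lower in PVASCs (log2 fold change -0.81 ± 0.04 SE, adjusted p = 4.05e-09), and against Ab-ASCs the log2 fold change was -0.22 ± 0.04 SE, adjusted p = 0.000991. Lamc1 levels were 94.4, 97.8 and 96.2 FPKM in Sub-ASCs, 59.9, 59.2 and 61.6 in Ab-ASCs and 46.0, 47.2 and 46.3 in PVASCs. Lamc1, which nearly all laminins contain, had the same order. Lamc1 in PVASCs was 2.07-fold lower than in Sub-ASCs (log2 fold change -1.05 ± 0.04 SE, adjusted p = 2.79e-10), and against Ab-ASCs the log2 fold change was -0.37 ± 0.04 SE, adjusted p = 1.56e-05.

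Lamb2, the beta chain of vascular, kidney and synaptic basement membranes, differed least of these 3 chains from its level in Sub-ASCs. Lamb2 measured 32.7, 31.4 and 32.6 FPKM in the Sub-ASC libraries, 27.6, 26.3 and 27.9 in the Ab-ASC libraries and 21.5, 21.2 and 21.4 in the PVASC libraries. Its order of groups was that of Lamb1, without overlap. PVASCs had 1.51-fold lower Lamb2 than Sub-ASCs (log2 fold change -0.59 ± 0.05 SE, adjusted p = 2.08e-07), and against Ab-ASCs the log2 fold change was -0.35 ± 0.05 SE, adjusted p = 6.3e-05. In Ab-ASCs against Sub-ASCs, the log2 fold changes were -0.59 for Lamb1, -0.24 for Lamb2 and -0.68 for Lamc1, and all passed the test. Lamb1 held 74.7% ± 0.901, 69.9% ± 0.503 and 71.8% ± 0.578 of the laminin beta FPKM in Sub-ASCs, Ab-ASCs and PVASCs (SD, n = 3). The sum of the 8 stromal markers was also highest in Sub-ASCs, at 2749 to 2936 FPKM against 924 to 986 in Ab-ASCs and 889.95 to 925 in PVASCs. Of these markers, Thy1 and Eng were called higher in PVASCs than in Sub-ASCs, Eng and Col1a1 were called higher in Ab-ASCs than in Sub-ASCs, and the other 6 in each comparison were lower. Their part in the levels of Lama4, Lamb1, Lamb2 and Lamc1 was not tested.

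Lamb3 and Lamc3 were at low levels. Lamb3, the beta chain of epithelial laminin, was at most 0.0865 FPKM and was called lower in PVASCs than in both other groups, with 1 to 5 reads in a PVASC library. Lamc3, a gamma chain of nerve and reproductive tissues, had 1, 3 and 0 reads in the Sub-ASC libraries. Against the floor of 3 reads in each library, Lamc3 was at least 18.2-fold higher in Ab-ASCs and at least 3.55-fold higher in PVASCs. Lamc3 was lower in PVASCs, at 0.0652 to 0.0783 FPKM, than in Ab-ASCs, at 0.344 to 0.372 FPKM. The sum of the mesothelial markers was also highest in Ab-ASCs, as given above, although Krt19 was called higher in PVASCs, and the 5 epithelial markers summed to 0.811 to 0.946 FPKM there and to at most 0.337 FPKM elsewhere. Of the 2 epithelial markers tested, Cdh1 was called higher in Ab-ASCs than in both other groups and Trp63, without a read in Ab-ASCs, lower. Their part in the levels of Lama3, Lamb3 and Lamc3 was not tested.

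All 4 tested subunits of the laminin-binding integrins, Itga3, Itga6, Itga7 and Itgb4, were higher in PVASCs than in either other group, by 2.79-fold to 6.83-fold, beside 34.7% of all genes against Sub-ASCs and 24.7% against Ab-ASCs. Itga3, on chromosome 11 (95044474 to 95076801, minus strand), pairs with Itgb1 into a receptor for laminins with Lama5 or Lama3. For Itga3, the Sub-ASC libraries gave 1.91, 2.25 and 2.58 FPKM, the Ab-ASC libraries 4.92, 4.29 and 4.63 and the PVASC libraries 15.4, 16.2 and 14.6. The order was Sub-ASCs, Ab-ASCs and PVASCs, with no overlap. Compared with Sub-ASCs, Itga3 was 6.83-fold higher in PVASCs (log2 fold change 2.77 ± 0.10 SE, adjusted p = 7.61e-11). Itga3 in PVASCs was 3.34-fold higher than in Ab-ASCs (log2 fold change 1.74 ± 0.09 SE, adjusted p = 1.76e-08). Ab-ASCs had 2.04-fold higher Itga3 than Sub-ASCs (log2 fold change 1.03 ± 0.10 SE, adjusted p = 1.33e-06).

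Itga6, on chromosome 2 (71745616 to 71858416, plus strand), pairs with Itgb1 or Itgb4 and is a marker of many basal stem cells. Itga6 levels were 1.53, 1.71 and 1.45 FPKM in Sub-ASCs, 2.18, 2.44 and 2.51 in Ab-ASCs and 10.2, 10.8 and 10.4 in PVASCs. Its groups stood in the same order as those of Itga3. Compared with Sub-ASCs, Itga6 was 6.72-fold higher in PVASCs (log2 fold change 2.75 ± 0.08 SE, adjusted p = 9.06e-12). Itga6 in PVASCs was 4.40-fold higher than in Ab-ASCs (log2 fold change 2.14 ± 0.08 SE, adjusted p = 4.6e-10). Ab-ASCs had 1.53-fold higher Itga6 than Sub-ASCs (log2 fold change 0.61 ± 0.08 SE, adjusted p = 2.04e-05).

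Itga7 encodes the laminin receptor of muscle cells. Itga7 measured 0.759, 0.690 and 0.622 FPKM in the Sub-ASC libraries, 1.02, 0.862 and 0.981 in the Ab-ASC libraries and 2.60, 2.43 and 2.95 in the PVASC libraries. The lowest PVASC library, at 2.43 FPKM, was above the highest of the others, at 1.02 FPKM. Compared with Sub-ASCs, Itga7 was 3.86-fold higher in PVASCs (log2 fold change 1.95 ± 0.11 SE, adjusted p = 6.64e-09). Itga7 in PVASCs was 2.79-fold higher than in Ab-ASCs (log2 fold change 1.48 ± 0.11 SE, adjusted p = 2.86e-07). Ab-ASCs and Sub-ASCs differed less, which also passed the test (log2 fold change 0.46 ± 0.12 SE, adjusted p = 0.00412).

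Itgb4 encodes the beta subunit of hemidesmosomes, which pairs with Itga6. For Itgb4, the Sub-ASC libraries gave 0.288, 0.247 and 0.294 FPKM, the Ab-ASC libraries 0.321, 0.203 and 0.235 and the PVASC libraries 1.32, 1.14 and 1.28. Itgb4 exceeded 1 FPKM in the PVASC libraries alone, and its Sub-ASC and Ab-ASC libraries overlapped. PVASCs had 4.52-fold higher Itgb4 than Sub-ASCs (log2 fold change 2.18 ± 0.15 SE, adjusted p = 4.33e-08). Compared with Ab-ASCs, Itgb4 was 4.98-fold higher in PVASCs (log2 fold change 2.32 ± 0.16 SE, adjusted p = 1.44e-07). Of the exon bases of Itgb4, 7.66% are shared with a gene on the opposite strand that had at most 2 reads in any library.

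Itgb1, the beta subunit that pairs with most of these alpha subunits, was the most abundant beta subunit in every library. Itgb1 levels were 214, 227 and 211 FPKM in Sub-ASCs, 417, 474 and 458 in Ab-ASCs and 450.3, 457 and 445 in PVASCs. Both PVASCs and Ab-ASCs were above Sub-ASCs, and they overlapped with each other. Itgb1 in PVASCs was 2.07-fold higher than in Sub-ASCs (log2 fold change 1.05 ± 0.05 SE, adjusted p = 2.51e-09). Ab-ASCs had 2.07-fold higher Itgb1 than Sub-ASCs (log2 fold change 1.05 ± 0.05 SE, adjusted p = 2.51e-09). Between PVASCs and Ab-ASCs, no difference passed the test (log2 fold change 0.00 ± 0.05 SE, adjusted p = 0.965). Itgb1 held 68.3% ± 0.986 of the integrin beta FPKM in Sub-ASCs, 75.7% ± 1.95 in Ab-ASCs and 82.1% ± 0.160 in PVASCs (SD, n = 3).

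Set beside each other, the summed laminin alpha chains and the summed laminin-binding alpha subunits had opposite orders across the groups. Of the chains, Lama4 alone had the order of the laminin sum. Lama2 and Lama3 were highest in Ab-ASCs, Lama5 was highest in PVASCs and Lama1 was lowest in Sub-ASCs. Itga3, Itga6 and Itga7 summed to 4.20 to 4.65 FPKM in Sub-ASCs, 7.60 to 8.12 in Ab-ASCs and 27.9 to 29.5 in PVASCs. For each 100 FPKM of laminin alpha chains there were 7.10 ± 0.302 FPKM of these subunits in Sub-ASCs, 26.3 ± 1.07 in Ab-ASCs and 126 ± 2.67 in PVASCs (SD, n = 3). Their makeup moved less than their sum: Itga3 held 49.8% ± 5.17, 58.0% ± 2.24 and 53.9% ± 1.46 of it. In PVASCs, Lama5 was the one alpha chain of at least 1 FPKM that was higher together with the receptors. These are mRNA levels within a library and not amounts of protein.

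Endothelial and Schwann cells are known to express Itga6, Itgb4 and Lama5, and the sums of their markers were also highest in PVASCs. Pecam1, an endothelial junction protein, was at 28.5 to 29.2 FPKM in PVASCs, 6.96 to 7.45 in Sub-ASCs and 1.86 to 2.18 in Ab-ASCs. All 6 endothelial markers were called higher in PVASCs than in Ab-ASCs, beside 24.7% of all genes, and 5 of 6 than in Sub-ASCs, beside 34.7%. Against Sub-ASCs, Tek was lower in PVASCs. The 5 Schwann cell markers summed to 6.42 to 7.25 FPKM in PVASCs, 2.25 to 2.45 in Sub-ASCs and 0.603 to 0.864 in Ab-ASCs, and Sox10 reached 3.71 to 4.27 FPKM in PVASCs, while Mbp was called lower there than in Sub-ASCs. In Ab-ASCs against Sub-ASCs, 5 of 6 endothelial and 4 of 4 tested Schwann cell markers were lower, beside 38.3% of all genes. The part of these cells in the levels of the subunits was not tested.

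**Figure D3:**
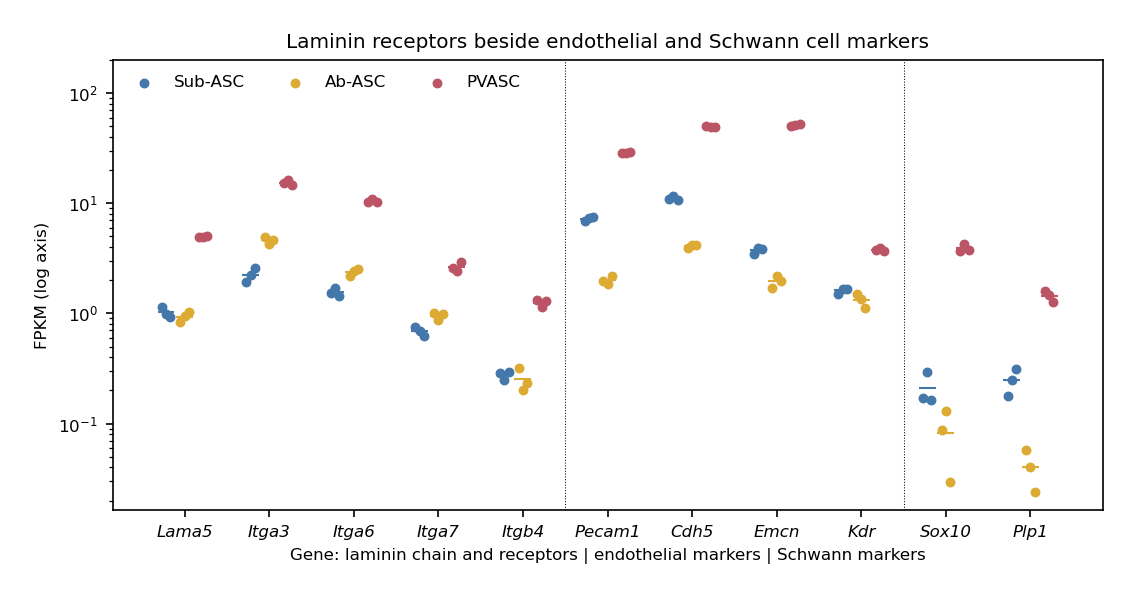
FPKM on a log axis of Lama5 and the laminin-binding subunits (left), 4 endothelial markers (middle) and 2 Schwann cell markers (right), with 1 point for each library, 1 colour for each group and a bar at the mean of 3 libraries. The genes drawn are highest in PVASCs, and the endothelial marker Tek and the Schwann cell marker Mbp, which were called lower in PVASCs than in Sub-ASCs, are not drawn. Itga3 and Itga6 are higher in Ab-ASCs than in Sub-ASCs, and Pecam1 and Cdh5 are lower.

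The collagen-binding alpha subunits changed in different directions: Itga11 was lower and Itga2 higher in PVASCs than in either other group. Itga11, on chromosome 9 (62677826 to 62783982, plus strand), encodes a receptor for fibrillar collagen of fibroblasts. Itga11 measured 32.2, 33.1 and 31.3 FPKM in the Sub-ASC libraries, 22.1, 21.4 and 21.8 in the Ab-ASC libraries and 8.68, 8.57 and 8.46 in the PVASC libraries. The 3 groups were apart from each other. Compared with Sub-ASCs, Itga11 was 3.76-fold lower in PVASCs (log2 fold change -1.91 ± 0.05 SE, adjusted p = 4.34e-12). Itga11 in PVASCs was 2.54-fold lower than in Ab-ASCs (log2 fold change -1.34 ± 0.05 SE, adjusted p = 7.01e-10). Ab-ASCs had 1.48-fold lower Itga11 than Sub-ASCs (log2 fold change -0.57 ± 0.05 SE, adjusted p = 3.48e-07).

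Itga2 encodes a collagen receptor that some cells also use for laminin. For Itga2, the Sub-ASC libraries gave 3.61, 3.99 and 3.96 FPKM, the Ab-ASC libraries 6.58, 8.35 and 7.70 and the PVASC libraries 9.03, 9.80 and 9.25. Its levels rose from Sub-ASCs over Ab-ASCs to PVASCs without overlap. Compared with Sub-ASCs, Itga2 was 2.43-fold higher in PVASCs (log2 fold change 1.28 ± 0.09 SE, adjusted p = 3.25e-08). Itga2 in PVASCs was 1.24-fold higher than in Ab-ASCs (log2 fold change 0.31 ± 0.08 SE, adjusted p = 0.00699). Ab-ASCs had 1.96-fold higher Itga2 than Sub-ASCs (log2 fold change 0.97 ± 0.09 SE, adjusted p = 4.95e-07). Itga11 held 86.98% ± 0.542 of the collagen-binding alpha FPKM in Sub-ASCs, 70.8% ± 2.87 in Ab-ASCs and 44.7% ± 1.18 in PVASCs, where Itga2 held 48.8% ± 1.03.

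Itga1, a receptor for basement membrane collagen, was near 1 FPKM in all groups. Itga1 levels were 0.704, 0.845 and 0.711 FPKM in Sub-ASCs, 0.950, 1.39 and 1.18 in Ab-ASCs and 0.786, 0.968 and 0.826 in PVASCs. Only Ab-ASCs exceeded 1 FPKM in the mean. Compared with Sub-ASCs, Itga1 was 1.56-fold higher in Ab-ASCs (log2 fold change 0.64 ± 0.14 SE, adjusted p = 0.000941). In PVASCs the log2 fold change was -0.45 ± 0.13 SE, adjusted p = 0.0117 against Ab-ASCs and 0.19 ± 0.13 SE, adjusted p = 0.231 against Sub-ASCs, of which the latter did not pass, nor did the former without the first PVASC library (adjusted p = 0.0505) or in a fit of these groups alone (0.0637). Itga10, a cartilage collagen receptor, lay between 0.197 and 0.448 FPKM in all libraries and was called higher in PVASCs than in both others, but it shares 33.5% of its exon bases with another gene on the same strand, which had at most 3 reads. Set against the collagen-binding subunits, there were 12.2 ± 0.725 FPKM of the laminin-binding alpha subunits for each 100 in Sub-ASCs, 25.9 ± 1.53 in Ab-ASCs and 149 ± 0.961 in PVASCs.

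Among the subunits that bind RGD motifs, Itga5 differed most between Ab-ASCs and Sub-ASCs, Itga8 between PVASCs and Sub-ASCs and Itgb8 between PVASCs and Ab-ASCs. Itga5, on chromosome 15 (103344286 to 103366763, minus strand), pairs with Itgb1 into the main fibronectin receptor. Itga5 measured 32.7, 33.9 and 36.4 FPKM in the Sub-ASC libraries, 452, 409 and 425 in the Ab-ASC libraries and 156, 159 and 151 in the PVASC libraries. The 3 groups did not overlap, and Itga5 was the leading integrin alpha subunit of Ab-ASCs and PVASCs, at 81.0% ± 1.53 and 62.9% ± 0.268 of the alpha FPKM. Itga5 in Ab-ASCs was 12.5-fold higher than in Sub-ASCs (log2 fold change 3.64 ± 0.06 SE, adjusted p = 9.84e-14). PVASCs had 4.53-fold higher Itga5 than Sub-ASCs (log2 fold change 2.18 ± 0.06 SE, adjusted p = 4.26e-12). Compared with Ab-ASCs, Itga5 was 2.76-fold lower in PVASCs (log2 fold change -1.46 ± 0.06 SE, adjusted p = 8.26e-10). In Sub-ASCs, Itga5 held 33.5% ± 1.66 and Itga11 31.4% ± 0.957. Fibronectin (Fn1), chosen after its values were seen, had the same order: 298, 309 and 300.2 FPKM in Sub-ASCs, 1311, 1225 and 1262 in Ab-ASCs and 855, 898 and 846 in PVASCs.

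Itgav, which pairs with several beta subunits to bind vitronectin and osteopontin, was higher in PVASCs and Ab-ASCs than in Sub-ASCs. For Itgav, the Sub-ASC libraries gave 14.6, 15.6 and 13.9 FPKM, the Ab-ASC libraries 24.5, 35.0 and 33.4 and the PVASC libraries 33.4, 34.3 and 33.0. The first Ab-ASC library was below the others of its group, and the Ab-ASC and PVASC ranges overlapped. Itgav in PVASCs was 2.29-fold higher than in Sub-ASCs (log2 fold change 1.19 ± 0.11 SE, adjusted p = 6.22e-07). Ab-ASCs had 2.11-fold higher Itgav than Sub-ASCs (log2 fold change 1.08 ± 0.11 SE, adjusted p = 1.53e-06). Between PVASCs and Ab-ASCs no difference passed, with a log2 fold change of 0.12 ± 0.11 SE, adjusted p = 0.365 with that library and -0.03 (edgeR adjusted p = 0.658) without it.

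Of the beta subunits that pair with Itgav, Itgb3 and Itgb5 were highest in Ab-ASCs and Itgb8 in PVASCs. Itgb3 encodes the vitronectin receptor's beta subunit, also found on platelets and osteoclasts. Itgb3 levels were 9.58, 9.33 and 9.38 FPKM in Sub-ASCs, 35.0, 33.6 and 34.9 in Ab-ASCs and 22.9, 23.5 and 22.9 in PVASCs. Its 3 groups were apart. Compared with Sub-ASCs, Itgb3 was 2.45-fold higher in PVASCs (log2 fold change 1.29 ± 0.05 SE, adjusted p = 1.13e-10), and the log2 fold change was -0.58 ± 0.05 SE, adjusted p = 7.4e-07 against Ab-ASCs. Itgb5 encodes another vitronectin-binding subunit. Itgb5 measured 68.3, 67.6 and 66.7 FPKM in the Sub-ASC libraries, 110.1, 100.1 and 103 in the Ab-ASC libraries and 69.7, 69.0 and 67.1 in the PVASC libraries. Its Sub-ASC and PVASC libraries overlapped, and no difference between them passed the test (log2 fold change 0.02 ± 0.05 SE, adjusted p = 0.706). Itgb5 in PVASCs was 1.52-fold lower than in Ab-ASCs (log2 fold change -0.61 ± 0.05 SE, adjusted p = 7.98e-07). Like Itga5 and Itgb3, the sums of the smooth muscle markers (29.8 to 32.6, 2391 to 2983 and 1458 to 1539 FPKM in Sub-ASCs, Ab-ASCs and PVASCs) and of the mesothelial markers were highest in Ab-ASCs and lowest in Sub-ASCs. All 5 smooth muscle markers had that order, while of the 8 mesothelial markers Krt19 was called highest in PVASCs and Krt8 did not pass in PVASCs against Sub-ASCs (log2 fold change -0.48). In sum, the 5 proliferation markers were lowest in Sub-ASCs (6.59 to 7.60 FPKM, against 77.1 to 89.5 in Ab-ASCs and 78.2 to 80.6 in PVASCs). Their part in these levels was not tested.

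Itgb8 encodes a subunit that activates latent TGF-beta. For Itgb8, the Sub-ASC libraries gave 0.198, 0.235 and 0.207 FPKM, the Ab-ASC libraries 0.170, 0.358 and 0.258 and the PVASC libraries 1.501, 1.31 and 1.52. The PVASC libraries all lay above the others, which overlapped. PVASCs had 6.76-fold higher Itgb8 than Sub-ASCs (log2 fold change 2.76 ± 0.18 SE, adjusted p = 2.45e-08). Compared with Ab-ASCs, Itgb8 was 5.43-fold higher in PVASCs (log2 fold change 2.44 ± 0.18 SE, adjusted p = 2.69e-07). Between Ab-ASCs and Sub-ASCs the log2 fold change was 0.32 ± 0.22 SE, adjusted p = 0.214 with all libraries and 0.53 (edgeR adjusted p = 0.0124) without the first Ab-ASC library.

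Itga8, whose main ligand is nephronectin, was low in Sub-ASCs. Itga8 levels were 0.0991, 0.139 and 0.0880 FPKM in Sub-ASCs, 0.976, 1.11 and 1.16 in Ab-ASCs and 1.42, 1.40 and 1.41 in PVASCs. The order was Sub-ASCs, Ab-ASCs and PVASCs, without overlap. Itga8 in PVASCs was 12.9-fold higher than in Sub-ASCs (log2 fold change 3.69 ± 0.15 SE, adjusted p = 2.85e-10). Ab-ASCs had 9.94-fold higher Itga8 than Sub-ASCs (log2 fold change 3.31 ± 0.16 SE, adjusted p = 1.28e-09). The log2 fold change in PVASCs against Ab-ASCs was 0.38 ± 0.11 SE, adjusted p = 0.0105. Nephronectin itself (Npnt) was at 0.188 to 0.299 FPKM in Sub-ASCs, 42.4 to 44.4 in Ab-ASCs and 27.9 to 28.7 in PVASCs, so both receptor and ligand were lowest in Sub-ASCs.

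Itga2b encodes the alpha subunit of the platelet fibrinogen receptor. Itga2b measured 1.46, 1.21 and 1.41 FPKM in the Sub-ASC libraries, 0.600, 0.448 and 0.687 in the Ab-ASC libraries and 0.908, 0.752 and 0.851 in the PVASC libraries. Sub-ASCs were highest and Ab-ASCs lowest. Compared with Sub-ASCs, Itga2b was 1.62-fold lower in PVASCs (log2 fold change -0.69 ± 0.14 SE, adjusted p = 0.000788). Itga2b in Ab-ASCs was 2.35-fold lower than in Sub-ASCs (log2 fold change -1.23 ± 0.16 SE, adjusted p = 1.45e-05). The log2 fold change in PVASCs against Ab-ASCs was 0.54 ± 0.16 SE, adjusted p = 0.0135, which did not pass without the second Ab-ASC library (adjusted p = 0.0616) or the first PVASC library (0.0541). Of 4 megakaryocyte and platelet markers, Gp9 was without a read in Ab-ASCs, while their sum, at 25.4 to 28.8, 93.9 to 117 and 8.56 to 10.02 FPKM in Sub-ASCs, Ab-ASCs and PVASCs, was highest in Ab-ASCs, where Itga2b was lowest. Pf4 and Ppbp were called higher in Ab-ASCs than in both other groups, whereas Gp1ba was called lower, with log2 fold changes of -2.04 in Ab-ASCs against Sub-ASCs and 1.64 in PVASCs against Ab-ASCs. The part of cells with these markers in the Itga2b level was not tested.

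Itga9, a receptor for tenascin and Svep1, was highest in Ab-ASCs. For Itga9, the Sub-ASC libraries gave 7.52, 8.70 and 7.68 FPKM, the Ab-ASC libraries 28.5, 27.1 and 27.2 and the PVASC libraries 6.43, 6.09 and 5.89. Ab-ASC libraries were above all others, and every PVASC library was below every Sub-ASC library. In PVASCs against Ab-ASCs its log2 fold change was -2.17 ± 0.07 SE, adjusted p = 1.43e-10. Ab-ASCs had 3.47-fold higher Itga9 than Sub-ASCs (log2 fold change 1.79 ± 0.07 SE, adjusted p = 1.02e-10). Against Sub-ASCs, PVASCs had a log2 fold change of -0.38 ± 0.07 SE, adjusted p = 0.000244. Its relative Itga4, which binds Vcam1 and fibronectin, stayed under 1 FPKM, at 0.844 to 0.872 in PVASCs, 0.109 to 0.157 in Sub-ASCs and 0.0461 to 0.0859 in Ab-ASCs. Itga4 was called higher in PVASCs than in both others, with log2 fold changes of 2.78 and 3.60 (edgeR adjusted p = 5.36e-09 and 7.84e-09), and shares 8.04% of its exon bases with Cerkl on the opposite strand.

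The leukocyte integrins were lower in PVASCs than in Sub-ASCs for 4 of 5 tested subunits, beside 35.7% of all genes, with Itgb7 far ahead of the rest. Itgb7, on chromosome 15 (102215995 to 102231944, minus strand), encodes the beta subunit of lymphocyte homing receptors. Itgb7 levels were 17.0, 15.7 and 17.3 FPKM in Sub-ASCs, 0.678, 0.899 and 0.708 in Ab-ASCs and 0.519, 0.685 and 0.678 in PVASCs. The Sub-ASC libraries stood above all others, which overlapped. Compared with Sub-ASCs, Itgb7 was 26.6-fold lower in PVASCs (log2 fold change -4.73 ± 0.12 SE, adjusted p = 2.47e-12). Itgb7 in Ab-ASCs was 21.7-fold lower than in Sub-ASCs (log2 fold change -4.44 ± 0.12 SE, adjusted p = 5.37e-12). Between PVASCs and Ab-ASCs no difference passed (log2 fold change -0.29 ± 0.16 SE, adjusted p = 0.147). The alpha subunits known to pair with it, Itga4 and Itgae, were at most 0.157 and 0.0937 FPKM in Sub-ASCs. The 5 lymphocyte markers summed to 0.848 to 1.197 FPKM in Sub-ASCs and at most 0.181 FPKM in the other groups, and their part in the Itgb7 level was not tested.

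Itgb2, the beta subunit shared by the integrins of myeloid cells and lymphocytes, was also highest in Sub-ASCs. Itgb2 measured 6.30, 6.65 and 6.26 FPKM in the Sub-ASC libraries, 3.52, 3.15 and 4.38 in the Ab-ASC libraries and 3.34, 3.07 and 3.20 in the PVASC libraries. The other 2 groups overlapped. PVASCs had 1.999-fold lower Itgb2 than Sub-ASCs (log2 fold change -0.9996 ± 0.11 SE, adjusted p = 3.29e-06). Compared with Sub-ASCs, Itgb2 was 1.74-fold lower in Ab-ASCs (log2 fold change -0.80 ± 0.11 SE, adjusted p = 2.85e-05). Between PVASCs and Ab-ASCs the log2 fold change was -0.20 ± 0.11 SE, adjusted p = 0.144, and -0.31 (edgeR adjusted p = 0.0257) without the second Ab-ASC library.

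Its partners Itgam and Itgax mark macrophages and dendritic cells. For Itgam, the Sub-ASC libraries gave 0.897, 1.16 and 0.987 FPKM, the Ab-ASC libraries 0.994, 0.672 and 0.515 and the PVASC libraries 0.438, 0.452 and 0.570. Itgax levels were 1.001, 0.867 and 1.14 FPKM in Sub-ASCs, 0.391, 0.139 and 0.223 in Ab-ASCs and 0.115, 0.0776 and 0.159 in PVASCs. The first Ab-ASC library was the highest of its group for both genes. Itgam in PVASCs was 2.08-fold lower than in Sub-ASCs (log2 fold change -1.06 ± 0.21 SE, adjusted p = 0.000626). PVASCs had 8.45-fold lower Itgax than Sub-ASCs (log2 fold change -3.08 ± 0.30 SE, adjusted p = 1.34e-06). Compared with Sub-ASCs, Itgax was 4.08-fold lower in Ab-ASCs (log2 fold change -2.03 ± 0.29 SE, adjusted p = 3.6e-05).

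The differences in Itgam and Itgax between PVASCs and Ab-ASCs did not pass without the first Ab-ASC library, nor in 11 and 5 of 15 alternatives in all. Their log2 fold changes were -0.56 ± 0.22 SE, adjusted p = 0.0497 and -1.05 ± 0.38 SE, adjusted p = 0.0327 with it, and -0.29 (edgeR adjusted p = 0.229) and -0.62 (adjusted p = 0.153) without it. Leaving out the third Ab-ASC library (adjusted p = 0.0522) or the first or second PVASC library (0.0771 and 0.105) also ended the call for Itgax, and leaving out any library but the third Ab-ASC or the third PVASC library that for Itgam (0.0543 to 0.229). Itgam in Ab-ASCs against Sub-ASCs (log2 fold change -0.50 ± 0.21 SE, adjusted p = 0.0467) did not pass in 9 of 15 alternatives, 7 of which left out 1 library (0.0569 to 0.207). Itgam shares 68.7% of its exon bases with an overlapping gene on the same strand, to which no read was assigned. Among the 8 macrophage markers, 6 were lower in PVASCs than in Sub-ASCs, beside 35.7% of all genes, among them Cd68 and Adgre1, whereas Csf1r and Lyz2 were higher. Their sum was 188 to 194 FPKM in Sub-ASCs, 226 to 299 in Ab-ASCs and 218 to 226 in PVASCs, and their part in the levels of Itgb2, Itgam and Itgax was not tested. Itgal, the lymphocyte partner of Itgb2, lay between 0.0677 and 0.389 FPKM and was lowest in Ab-ASCs. Itgb6, Itgad and Itgae did not pass the filter, with at most 10 reads in a library.

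**Figure D4:**
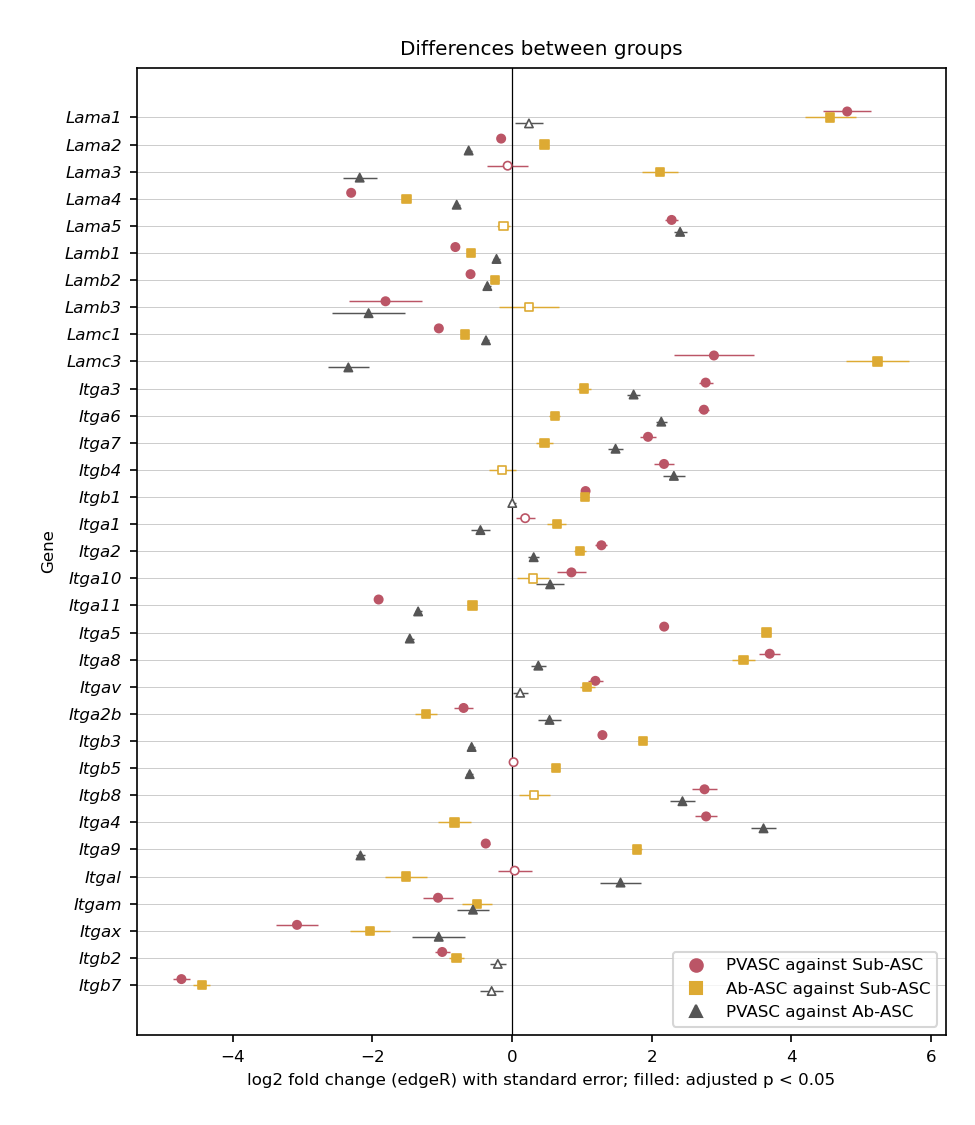
log2 fold change with its standard error (edgeR) of the 33 tested members in the 3 comparisons, given as circles (PVASCs against Sub-ASCs), squares (Ab-ASCs against Sub-ASCs) and triangles (PVASCs against Ab-ASCs). Filled symbols passed the threshold of 0.05. The 4 laminin-binding subunits lie to the right of 0 for both PVASC comparisons, and Lamb1, Lamb2, Lamb3 and Lamc1 to the left. The values of Lamc3 against Sub-ASCs are fitted to at most 3 reads and are no bounds.

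Other proteins that bind laminin or integrins were grouped in lists, and the genes named from them passed the test in the comparison given. The shares of all genes tested that were higher and lower, 34.7% and 35.7% in PVASCs against Sub-ASCs and 24.7% and 32.1% in PVASCs against Ab-ASCs, stand as the background of the counts in each list. Of 7 further laminin receptors and their partners, 4 were higher and 3 lower in PVASCs than in Sub-ASCs, and 2 were higher and 3 lower than in Ab-ASCs. Bcam, a receptor for laminins with Lama5, was at 11.8 to 13.2 FPKM in PVASCs, 8.52 to 9.15 in Ab-ASCs and 1.60 to 2.34 in Sub-ASCs, without overlap. Bcam in PVASCs was 6.202-fold higher than in Sub-ASCs (log2 fold change 2.63 ± 0.11 SE, adjusted p = 3.38e-10). The heparan sulfate carriers Sdc1 and Sdc2 differed less, with log2 fold changes of 0.92 and -0.77 against Sub-ASCs.

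Of 7 basement membrane partners of laminin, 4 were higher and 3 lower in PVASCs than in Sub-ASCs, and 3 were higher and 4 lower than in Ab-ASCs. Nephronectin (Npnt) was higher than in Sub-ASCs by 6.86 on the log2 scale and netrin 4 (Ntn4), which binds laminin gamma chains, by 1.93. Nidogen 2 (Nid2), which links laminin to collagen networks, read 20.3 to 22.1 FPKM in PVASCs, 53.8 to 57.8 in Ab-ASCs and 135 to 138 in Sub-ASCs, which is the order of Lama4, Lamb1 and Lamc1. PVASCs had 6.44-fold lower Nid2 than Sub-ASCs (log2 fold change -2.69 ± 0.05 SE, adjusted p = 3.17e-13). Nidogen 1 (Nid1), the other nidogen of the list, went the other way. Its levels were 317 to 332 FPKM in PVASCs, 259 to 267 in Sub-ASCs and 208 to 217 in Ab-ASCs. The log2 fold change of Nid1 in PVASCs was 0.30 against Sub-ASCs and 0.61 against Ab-ASCs, and each passed the test.

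The other integrin ligands were higher in PVASCs than in Sub-ASCs for 9 and lower for 5 of 14 tested, and against Ab-ASCs for 4 and 8. Osteopontin (Spp1), a ligand of Itgav and Itga9 receptors, was higher by 5.86 on the log2 scale than in Sub-ASCs, and connective tissue growth factor (Ctgf) by 4.996. Vitronectin (Vtn), a ligand of Itgav receptors, was at 5.52 to 5.69 FPKM in Sub-ASCs and at most 0.0657 FPKM in the other libraries, so it was highest in Sub-ASCs, where Itgav and Itgb3 were lowest. Against Ab-ASCs, Icam2, a ligand of leukocyte integrins on endothelium, had a log2 fold change of 2.99, Svep1 of -1.43 and Ctgf of -1.11.

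Of 20 genes for the adaptors that tie integrins to actin, 14 were higher and 4 lower in PVASCs than in Sub-ASCs (34.7% and 35.7% of all genes), and 3 were higher and 12 lower than in Ab-ASCs (24.7% and 32.1% of all genes). In Ab-ASCs against Sub-ASCs, 16 were higher and 3 lower, beside 37.0% and 38.3% of all genes. Parvb, a parvin that binds integrin-linked kinase, had a log2 fold change of 3.09 in PVASCs against Sub-ASCs, tensin 3 (Tns3) of 2.33 and vinculin (Vcl) of 2.02. In Ab-ASCs against Sub-ASCs the log2 fold changes were 3.32 for Tns3 and 2.57 for zyxin (Zyx). In PVASCs against Ab-ASCs, Lims2 had -1.33. Smooth muscle cells are rich in such adaptors, and the part of cells with the smooth muscle markers given above in the adaptor levels was not tested.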

How the data were processed

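Bulk mRNA sequencing libraries (NEBNext Ultra kit) of cultured ASCs from 3 fat depots were analysed, with groups taken from the tissue labels. The authors deposited counts of reads per gene and library, without normalization, beside gene length and position. Their processing notes name CASAVA 1.8, Bowtie 0.12.2, featureCounts 1.5.0-p3 and the builds mm8 and mm10 with no role. The strandedness is not given in the sources used here, so overlapping and antisense genes may share reads.

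Counts were filtered with filterByExpr by group, which kept 16526 genes, and TMM-normalised. All 9 libraries entered 1 fit without covariates (edgeR 4.0.16, limma 3.58.1, R 4.3.3), and each pair of groups was compared by the quasi-likelihood test with Benjamini-Hochberg adjustment over all genes tested and a threshold of 0.05. The SE is the log2 fold change divided by the square root of F. FPKM is TMM-normalised CPM per kilobase of the listed length. Where a group had at most 3 reads in each library, folds are bounds against 3 reads. Library totals were 20524173 to 29881036. Tables and plots used Python 3.11.15, pandas 2.3.3, numpy 2.4.6 and matplotlib 3.10.9.

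Tested on simulated data for PVASCs against Sub-ASCs (15966 genes, 200 changed), the procedure recovered 68% of 1.5-fold, 90% of 2-fold, 100% of 4-fold and 90% of 0.25-fold changes, with 12 unchanged genes called. The simulated counts had the same dispersion for all genes and groups. In the data, 70.4% of all genes were called in this comparison, so these rates need not hold for the libraries here. Alternatives were DESeq2 1.42.0, RLE size factors, no filter, a minimum of 10 reads per library, fitting the compared groups alone, a replicate block, a 2-fold minimum (1 on the log2 scale), each library left out in turn, and CPM for FPKM in shares.

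The members and lists were chosen with earlier results of these data known. Members with a mean of at least 1 FPKM in a group are named with each library's value, and the rest by range. From each other list, up to 3 called genes with the largest absolute log2 fold change and at least 1 FPKM in a group are named for PVASCs against Sub-ASCs, and up to 3 more for each other comparison. Nid1 is named outside this rule, for comparison with Nid2. One marker gene is not reported here and was left out of its list's counts and sums.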

Additional observations from a re-analysis of the deposited data

How the results depend on the processing

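The log2 fold changes of the 26 members of at least 1 FPKM were recomputed in 15 other fits, which gave 1170 values over 78 member comparisons: 1130 kept their direction and their side of the threshold, 5 turned direction, 33 no longer passed and 2 came to pass. Of the 5, 0 passed the threshold in either fit, and all came from leaving out 1 library, over which the log2 fold change of Itgb1 in PVASCs against Ab-ASCs ranged from -0.0498 to 0.0383 (below 0 without the second Sub-ASC, the first Ab-ASC or the second PVASC library), that of Itgav in PVASCs against Ab-ASCs from -0.0281 (without the first Ab-ASC library) to 0.210 and that of Itgb4 in Ab-ASCs against Sub-ASCs from -0.327 to 0.0046 (without the second Ab-ASC library). The 33 belong to 6 member comparisons: Lama2 in PVASCs against Sub-ASCs, Itga1, Itga2b, Itgam and Itgax in PVASCs against Ab-ASCs, and Itgam in Ab-ASCs against Sub-ASCs. The counts of members called, 29 in PVASCs against Sub-ASCs, 28 in PVASCs against Ab-ASCs and 28 in Ab-ASCs against Sub-ASCs, were 29, 27 and 28 with DESeq2 and 27 to 29, 23 to 28 and 27 to 29 when 1 library was left out. A minimum of 1 for the size of the log2 fold change left 15 members in PVASCs against Ab-ASCs and 15 in Ab-ASCs against Sub-ASCs, fewer by construction. With CPM in place of FPKM, which no longer corrects for gene length, Lama4 held 84.8%, 58.7% and 46.3% of the laminin alpha level in Sub-ASCs, Ab-ASCs and PVASCs, and Itga3 held 39.4%, 47.4% and 43.1% of the laminin-binding alpha level. Itga6 held 43.3%, 38.7% and 46.4% of the latter, so in CPM it led in Sub-ASCs and PVASCs.

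The labels do not say whether libraries with the same number share anything else. Their deviations from the group means correlated by -0.0514 to 0.0950. In PVASCs and Sub-ASCs, 3 of 3 libraries correlated best with their own number. With the replicate block, 29, 27 and 27 members were called. Members under the filter cannot be compared at this depth.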
